A study of Homo sapiens with 25 samples.

Results

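The 34 genes described here encode the glycolytic enzymes, the glucose transporters and a set of known targets of hypoxia-inducible factor (HIF), together with HIF1A itself. They were picked by name for their function, with earlier results of these data known. All 34 were found among the 59427 gene names of the table. Bulk RNA sequencing was made from A549, a human lung adenocarcinoma line, and NCI-H460, a human large cell lung carcinoma line, both established lines of non-small cell lung cancer. Each line had 5 groups, all collected 24 h after transfection of an antisense oligonucleotide (ASO) at 25 nM. The groups were candidate 42 ASO3, candidate 42 ASO5, candidate 240 ASO1, candidate 240 ASO3, and a Qiagen neutral control ASO. An ASO binds its RNA by base pairing so that the RNA is cut, and the candidates are 2 long noncoding RNAs. A549 had 3 libraries per group, numbered 3 to 5, and NCI-H460 had 2, numbered 1 and 2. Every group was transfected, so no value here is from untouched cells, and the labels name no oxygen condition. Nothing in the labels ties the replicate libraries to separate cultures, so each p-value measures the spread between these libraries only.

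Glycolysis splits glucose into pyruvate in the cytosol. Glucose enters through carriers of the SLC2A family, is held in the cell by hexokinases, is committed at the phosphofructokinase step, and leaves as lactate or enters the mitochondria as acetyl-CoA. HIF, a dimer of an oxygen-labile alpha subunit such as HIF1A and the stable partner ARNT, switches on many of these genes when oxygen is low. When oxygen is present, prolyl hydroxylases of the EGLN family mark the alpha subunit for destruction, so HIF1A is set mainly at the protein level and its mRNA need not follow its activity. Many carcinomas run glycolysis even in air.

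Levels are in TPM, a value per transcript length, rescaled between libraries by the authors, so levels of different genes can be set side by side. Column sums ran from 924350 to 1179224, and the depth of a library cannot be had from them. The 34 genes made up 1.55% to 2.12% of the signal of a library. All 5 A549 replicate 3 libraries stood apart from replicates 4 and 5. In every A549 group, replicate 3 was the highest library for 10 members (PFKP, ALDOA, TPI1, GAPDH, PGAM1, ENO1, PKM, LDHA, CA9 and ADM) and the lowest for 9 (SLC2A3, BNIP3L, CA12, NDRG1, EGLN1, P4HA1, HIF1A, KDM3A and MXI1). Keratins marked both lines as epithelial, with KRT8 at 4127 ± 381 TPM in A549 controls and 915 ± 9.65 TPM in NCI-H460 controls (SD, n = 3 and 2), but CDH1 and EPCAM stood below 1 TPM in NCI-H460 controls. Summed endothelial markers reached at most 0.708 TPM and summed fibroblast markers at most 10.7 TPM in any library. Of the leukocyte markers, PTPRC and CD3E were listed at 0 in the controls of both lines, and CD14 stood at 15.1 ± 1.41 TPM in A549 controls and 16.8 ± 4.41 TPM in NCI-H460 controls. The RNA taken as candidate 42, AC107959.3, stood at 8.55% of control with ASO3 and 45.0% with ASO5 in A549, and at 30.3% and 95.5% in NCI-H460. The RNA taken as candidate 240, AC015712.6, lay under 1 TPM in both lines and stood at 4.44% of control with ASO3 and 53.4% with ASO1 in A549, and at 59.6% and 111% in NCI-H460. With no strand setting stated, reads from overlapping genes on opposite strands cannot be told apart.

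Of the members, 3 were called in at least 3 of the 8 comparisons of an ASO with control. ALDOC, which encodes the brain-type aldolase, was called in 4, all higher. ENO2, which encodes the neuronal enolase, was called in 3, all higher. PDK1, a kinase that shuts off pyruvate dehydrogenase and so keeps pyruvate from the mitochondria, was called in 3, all lower. Their promoters are shown because these genes were called most often. The share of all genes called that often is not given, so the count is no result about them. The 4 comparisons of a line also share their control libraries. Every ENO2 call, and the PDK1 calls with candidate 240 ASO3 in both lines, were lost when some single libraries were left out. Each line below holds 250 bases before to 50 bases after the annotated start, 5′ to 3′ on the gene's strand, from RefSeq on GRCh38.p14, and capitals mark ACGTG or GCGTG on either strand (CACGT or CACGC when read here). These letters are the core that HIF binds, and CACGTG holds a match on both strands.
ALDOC: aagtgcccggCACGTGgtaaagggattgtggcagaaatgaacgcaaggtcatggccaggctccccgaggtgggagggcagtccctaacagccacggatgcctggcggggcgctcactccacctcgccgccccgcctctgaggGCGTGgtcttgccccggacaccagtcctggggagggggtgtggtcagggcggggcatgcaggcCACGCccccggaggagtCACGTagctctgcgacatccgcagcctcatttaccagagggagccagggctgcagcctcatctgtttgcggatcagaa
ENO2: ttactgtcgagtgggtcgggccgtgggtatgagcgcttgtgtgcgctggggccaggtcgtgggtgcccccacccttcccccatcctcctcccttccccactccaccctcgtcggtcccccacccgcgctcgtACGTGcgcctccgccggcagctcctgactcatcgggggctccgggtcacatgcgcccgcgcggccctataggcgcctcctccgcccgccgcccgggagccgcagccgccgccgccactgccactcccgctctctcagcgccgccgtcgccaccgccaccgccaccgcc
PDK1: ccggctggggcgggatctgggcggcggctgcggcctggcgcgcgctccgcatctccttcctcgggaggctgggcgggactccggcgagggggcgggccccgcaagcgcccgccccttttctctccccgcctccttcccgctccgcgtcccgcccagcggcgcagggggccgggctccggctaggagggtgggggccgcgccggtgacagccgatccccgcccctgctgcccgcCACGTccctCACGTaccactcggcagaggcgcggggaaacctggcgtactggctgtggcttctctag
The ALDOC window lies at chr17:28576846-28577145 on the minus strand, the ENO2 window at chr12:6914330-6914629 on the plus strand, and the PDK1 window at chr2:172555840-172556139 on the plus strand. PDK1 has a second annotated start upstream, whose window holds no match. The ALDOC window holds 3 matches of ACGTG and 2 of GCGTG over 4 places, ENO2 holds 1 match and PDK1 holds 2. At least 1 promoter with a match was found for 28 of the 31 members in the promoter table (90.3%), and for 14318 of all 27305 genes in it (52.4%). Counted by promoter, 37 of 51 member promoters (72.5%) and 17012 of all 35116 promoters (48.4%) held a match. A match is a description of the sequence and shows no binding.

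The comparison of the control libraries asked how the lines differ before any candidate was targeted. Of the 34 members, 15 were higher and 12 were lower in A549 than in NCI-H460, at an adjusted p under 0.05 in limma's test of log2(TPM + 0.5) (Benjamini-Hochberg over 14769 genes). Of all genes tested, 54.9% were called (36.4% higher and 18.4% lower), so a call is common between these lines. The members' median log2 difference was 0.21, and that of all genes was also 0.21. HK2, PDK1 and SLC2A3 were much lower in A549, and CA12, PFKFB3, NDRG1, ENO2 and ADM much higher. The lines hold different replicate numbers, so a difference between lines and a difference between replicate batches cannot be told apart. In bulk RNA, fewer cells with a transcript and less of it per cell cannot be told apart either.

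Of the 5 genes of glucose entry and its first steps, 4 were lower in A549 and 1 was higher. HK2, the inducible hexokinase of muscle and many tumours, stood at 0.175, 0.229 and 0.226 TPM in A549 controls, against 15.3 and 15.4 TPM in NCI-H460 controls. The log2 difference is -4.48, and HK2 is the least abundant member in A549. HK2 passed the filter of 1 TPM over all libraries only through NCI-H460, so it had to differ, and its call, included in the count above, supports nothing. HK1, the housekeeping hexokinase, averaged 34.6 ± 1.15 TPM in A549 controls and 56.5 ± 2.003 TPM in NCI-H460 controls (SD, n = 3 and 2), a log2 difference of -0.70. SLC2A1, the basal glucose transporter GLUT1, had 165, 143 and 142 TPM in A549 controls, against 291 and 283 TPM in NCI-H460 controls. It was lower in A549 by a log2 difference of -0.94 ± 0.13 (adjusted p = 3.80e-06). SLC2A3, the high-affinity transporter GLUT3, had 5.21, 8.11 and 12.97 TPM in A549 controls, against 47.9 and 46.4 TPM in NCI-H460 controls. Its groups lie far apart although the A549 libraries spread widely, with a log2 difference of -2.45 ± 0.27 (adjusted p = 2.61e-07). GPI, the isomerase of the second step, was the exception, at 862 ± 60.1 TPM in A549 controls and 452 ± 47.3 TPM in NCI-H460 controls (log2 difference 0.93).

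At the phosphofructokinase step all 4 members were called. PFKFB3, which makes the activator fructose 2,6-bisphosphate, had 191, 216 and 208 TPM in A549 controls, against 17.7 and 17.5 TPM in NCI-H460 controls. The log2 difference was 3.5 ± 0.13 (adjusted p = 2.01e-14). PFKFB4, its relative, was low in both lines, at 2.60 ± 0.442 TPM in A549 controls and 1.66 ± 0.175 TPM in NCI-H460 controls. Its call (log2 difference 0.52, adjusted p = 0.0214) was lost without A549 control replicate 4 or NCI-H460 control replicate 2, where the difference ranged down to 0.42 and the adjusted p up to 0.147. The platelet subunit PFKP was higher in A549 (log2 difference 0.45) and the liver subunit PFKL lower (-0.84). PFKP made up 72.8% ± 0.436 of the summed PFKL, PFKM and PFKP signal in A549 controls and 47.5% ± 0.0496 in NCI-H460 controls.

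The lower part of the pathway held the most abundant transcripts and the smaller differences. GAPDH, which oxidises glyceraldehyde 3-phosphate, led the members in both lines, at 5686 ± 869 TPM in A549 controls and 7613 ± 40.9 TPM in NCI-H460 controls. Pyruvate kinase PKM came next in A549, at 3137 ± 640 TPM against 1549 ± 28.3 TPM in NCI-H460 controls (log2 difference 1.00, adjusted p = 0.000148). The muscle-type aldolase ALDOA, PGK1 and PGAM1 were lower in A549, by log2 differences of -0.67, -0.33 and -0.31. The minor isoforms differed more. ENO2 had 45.6, 41.5 and 38.6 TPM in A549 controls, against 7.69 and 8.38 TPM in NCI-H460 controls (log2 difference 2.31 ± 0.10, adjusted p = 3.12e-13). ALDOC had 5.80, 5.70 and 5.96 TPM in A549 controls, against 20.4 and 20.6 TPM in NCI-H460 controls (log2 difference -1.73 ± 0.15, adjusted p = 7.52e-09). The ALDOA call was lost without A549 control replicate 4 or 5 or either NCI-H460 control, with log2 differences of -0.86 to -0.56 over all omissions and an adjusted p of up to 0.0967, and that of PGAM1 without A549 control replicate 5 or either NCI-H460 control (log2 difference -0.34 to -0.25, adjusted p up to 0.0775). TPI1, GAPDH and ENO1 were not called. Processed pseudogenes close in sequence exist for several of these enzymes, so the values of GAPDH, PGK1, ENO1, PGAM1, LDHA, ALDOA and TPI1 are uncertain to the extent that reads were shared with them.

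At the end of the pathway, LDHA, which turns pyruvate into lactate, had 977, 948 and 929 TPM in A549 controls, against 813 and 890 TPM in NCI-H460 controls. The groups do not overlap, but the difference (log2 0.16 ± 0.12) did not pass the test, with an adjusted p of 0.270. PDK1 had 1.498, 1.82 and 1.61 TPM in A549 controls, against 27.4 and 28.2 TPM in NCI-H460 controls, with no overlap (log2 difference -3.73 ± 0.16, adjusted p = 1.79e-13). The other pyruvate dehydrogenase kinases stood the other way. PDK1 made up 2.92% ± 0.334 of the summed signal of PDK1 to PDK4 in A549 controls (SD, n = 3) and 65.3% ± 0.722 in NCI-H460 controls (n = 2). PDK2 stood at 28.1 ± 3.37 TPM in A549 controls, against 2.99 ± 0.229 TPM in NCI-H460 controls.

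**Figure D1:**
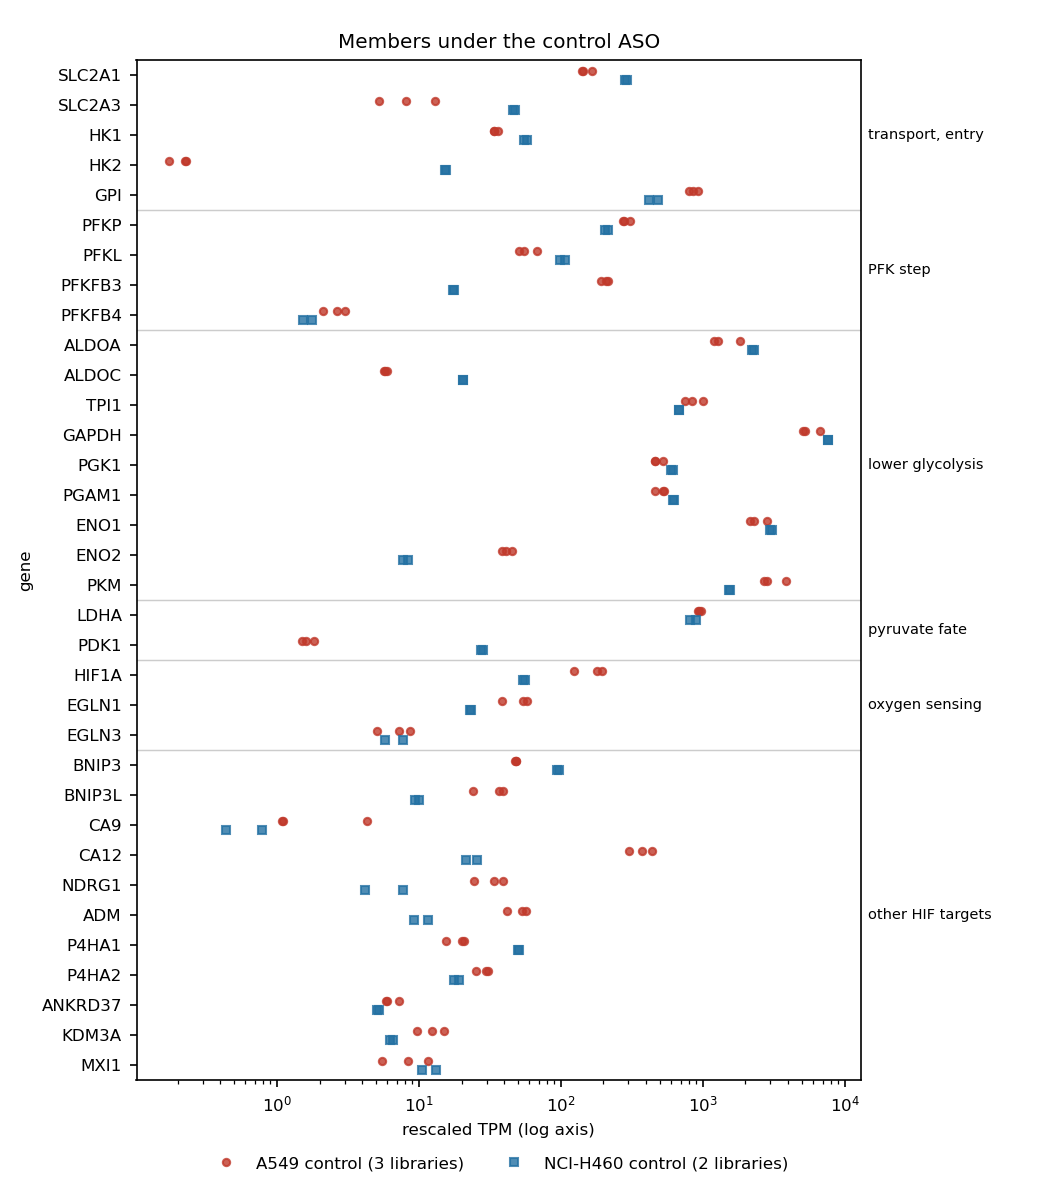
Levels of the 34 members under the control ASO, in rescaled TPM on a log axis, ordered by role. Each circle is 1 of 3 A549 libraries and each square 1 of 2 NCI-H460 libraries. HK2, PDK1 and SLC2A3 lie to the left in A549, CA12, PFKFB3, NDRG1, ENO2 and ADM lie to the left in NCI-H460, and the abundant enzymes of lower glycolysis lie close together.

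Among the genes of oxygen sensing, HIF1A mRNA had 124, 180 and 196 TPM in A549 controls, against 56.3 and 54.5 TPM in NCI-H460 controls. Replicate 3 was the low A549 library, yet the groups do not overlap (log2 difference 1.55 ± 0.23, adjusted p = 9.03e-06). EGLN1, the main HIF prolyl hydroxylase PHD2, had 38.7, 54.3 and 58.1 TPM in A549 controls, against 23.3 and 22.9 TPM in NCI-H460 controls (log2 difference 1.09 ± 0.17, adjusted p = 2.23e-05). EGLN3, the hypoxia-inducible PHD3, was alike in level, at 7.25, 8.74 and 5.08 TPM in A549 controls and 7.72 and 5.82 TPM in NCI-H460 controls. The groups overlap, with a log2 difference of 0.03 ± 0.19 and an adjusted p of 0.902.

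Of the 11 other HIF targets, 7 were higher and 2 lower in A549. CA12, a membrane carbonic anhydrase, had 302, 442 and 373 TPM in A549 controls, against 25.7 and 21.6 TPM in NCI-H460 controls (log2 difference 3.94 ± 0.24, adjusted p = 4.15e-11). CA9, the carbonic anhydrase often used as a hypoxia marker, was near the floor, at 4.33, 1.08 and 1.103 TPM in A549 controls, against 0.437 and 0.791 TPM in NCI-H460 controls. A549 replicate 3 alone stands above the rest, and the call (log2 difference 1.07) was lost without it or either NCI-H460 control (adjusted p up to 0.225, log2 difference down to 0.53). CA9 passed the filter only through A549, so its call, included in the 7 and in the earlier count over all members, supports nothing. NDRG1, a stress-induced gene, had 24.7, 34.05 and 39.0 TPM in A549 controls, against 7.75 and 4.16 TPM in NCI-H460 controls (log2 difference 2.39 ± 0.22, adjusted p = 2.01e-08). ADM, the vasodilator peptide adrenomedullin, had 56.6, 41.9 and 53.1 TPM in A549 controls, against 11.6 and 9.21 TPM in NCI-H460 controls (log2 difference 2.22 ± 0.20, adjusted p = 1.30e-08).

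For BNIP3 and BNIP3L, and for P4HA1 and P4HA2, the related genes differed in opposite directions. BNIP3L, a receptor that marks mitochondria for removal, had 24.0, 36.9 and 39.1 TPM in A549 controls, against 9.44 and 9.97 TPM in NCI-H460 controls (log2 difference 1.70 ± 0.23, adjusted p = 2.95e-06). Its relative BNIP3 went the other way, at 48.1 ± 0.731 TPM in A549 controls and 95.4 ± 2.34 TPM in NCI-H460 controls (log2 difference -0.98). P4HA1, a collagen prolyl hydroxylase subunit, had 15.7, 20.7 and 20.1 TPM in A549 controls, against 50.8 and 49.7 TPM in NCI-H460 controls (log2 difference -1.40 ± 0.14, adjusted p = 8.80e-08). P4HA2 was higher in A549 (log2 difference 0.61), so P4HA1 held 39.7% ± 4.90 of the pair's signal in A549 controls and 73.0% ± 0.797 in NCI-H460 controls. KDM3A, a histone demethylase, was higher in A549 (log2 difference 0.88), and ANKRD37 and MXI1 were not called.

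Scaling touches the small baseline differences. Under median-of-ratios scaling the median of all genes shifts by -0.21 on the log2 scale, and the members split into 12 higher and 15 lower in A549, against 15 and 12. PFKP, PFKFB4 and CA9 lost their calls there, while GAPDH, ENO1 and MXI1 gained one, all 3 lower in A549. Shares within a family do not depend on the scaling. HK2 held 0.606% ± 0.104 of the summed HK1 and HK2 signal in A549 controls and 21.4% ± 0.713 in NCI-H460 controls. SLC2A3 held 5.61% ± 2.66 of the SLC2A1 and SLC2A3 signal in A549 controls and 14.1% ± 0.0191 in NCI-H460 controls.

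**Figure D2:**
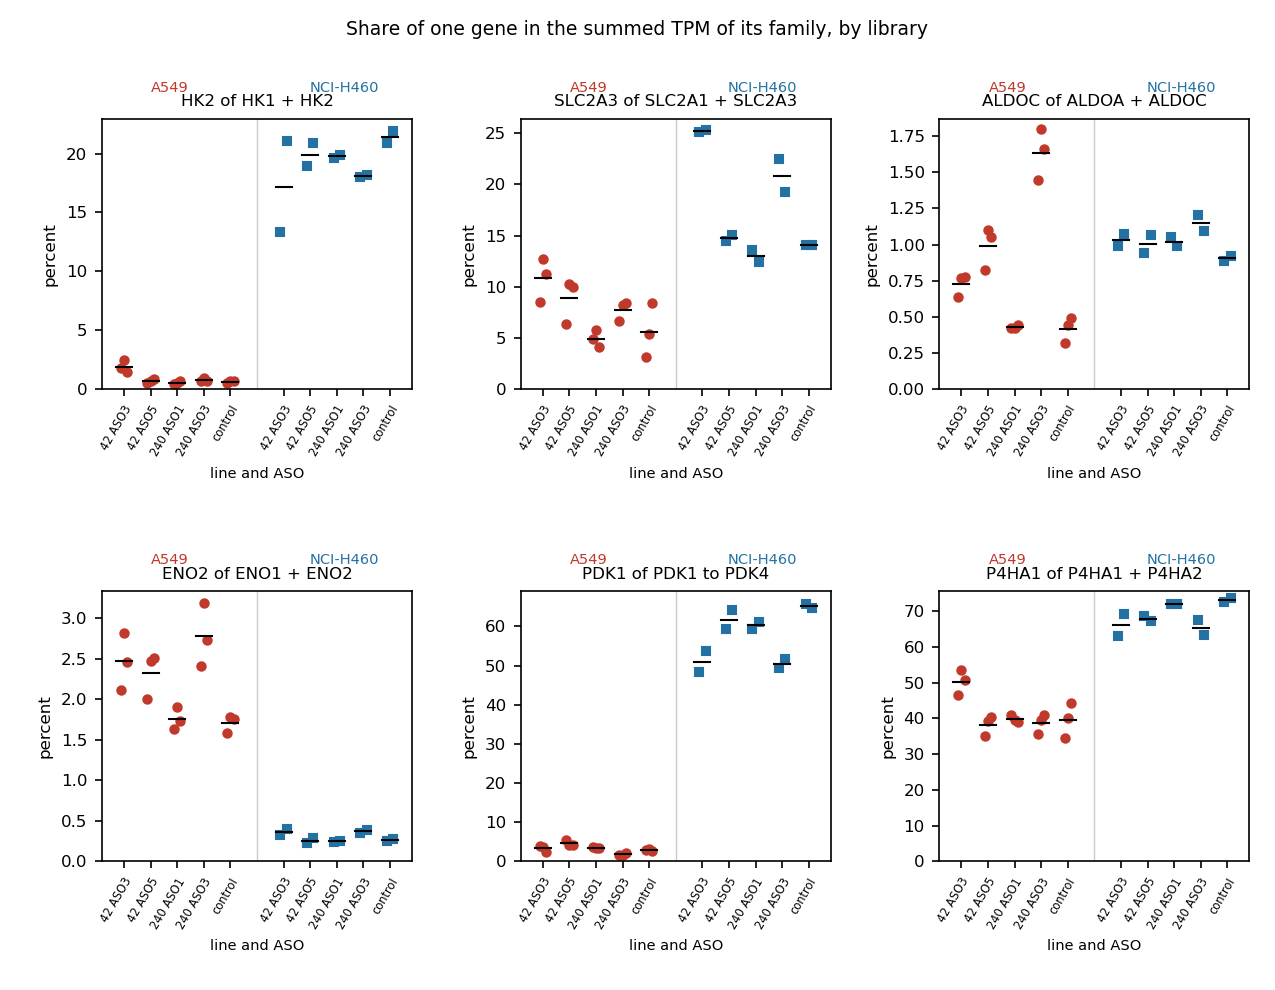
Share of 1 gene in the summed TPM of its family, in percent, for every library. Circles are A549, squares are NCI-H460, and bars are group means over 3 and 2 libraries. HK2, SLC2A3, PDK1 and P4HA1 hold the smaller share in A549 in every group, ENO2 the larger one, and the ALDOC share in A549 is highest with candidate 240 ASO3.

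The comparisons of each ASO with the control of its line asked how the genes respond when a candidate is targeted. In A549, 33 members passed the filter of a mean of 1 TPM (all but HK2), and in NCI-H460 33 passed (all but CA9). Over the 8 comparisons there were 264 tests of a member and 37 calls, 16 higher and 21 lower. In all, 24 members were called at least once and 10 never. The 10 were SLC2A3, GPI, PFKL, GAPDH, PGK1, PGAM1, ENO1, PKM, EGLN3 and CA9. Some of these were called in the alternative runs or in the authors' deposited tables (q-value under 0.05). Those tables called SLC2A3 with candidate 42 ASO3 in both lines and with 42 ASO5 in A549. They called PFKL and PKM with candidate 42 ASO3 and 240 ASO3 in NCI-H460. GPI, PGK1, PGAM1 and ENO1 were called there with candidate 42 ASO3 in NCI-H460. There were 8 members called only as higher, 15 only as lower, and P4HA2 once in each direction. Of the 37 calls, 19 came from candidate 42 ASO3 in NCI-H460, where 46% of all genes were called (13.2% higher and 32.8% lower). No pooled share over all genes is given, so these pooled counts are no result about the members. The 4 ASO comparisons of a line share their control libraries, so a high or low control moves all 4.

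**Figure D3:**
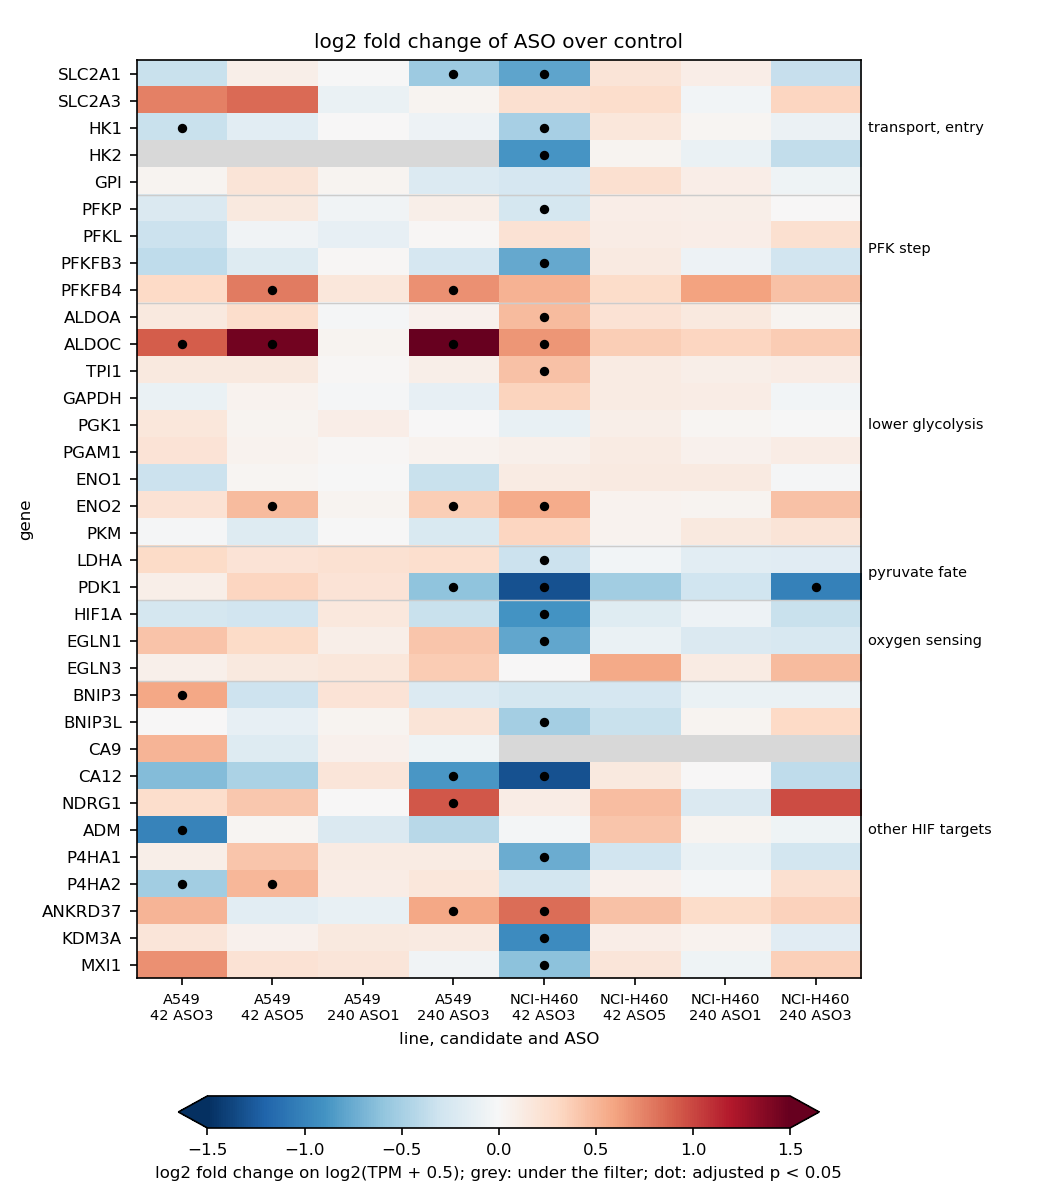
log2 fold change of each ASO over control for the 34 members, on log2(TPM + 0.5). Red is higher and blue lower with the ASO, a dot marks an adjusted p under 0.05 in limma, and grey marks a gene under the filter. ALDOC is red with a dot in 4 columns, and candidate 42 ASO3 in NCI-H460 holds 19 of the 37 dots.

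In A549, candidate 42 ASO3 raised ALDOC and BNIP3 and lowered ADM, P4HA2 and HK1. These 5 of 33 members compare with 10.1% of all genes called (3.43% higher and 6.63% lower). ALDOC had 12.3, 10.5 and 11.3 TPM with the ASO, against 5.80, 5.70 and 5.96 TPM in controls (log2 fold change 0.91 ± 0.15, adjusted p = 0.00173). BNIP3 had 72.8, 70.0 and 73.0 TPM with the ASO, against 47.3, 48.2 and 48.7 TPM in controls (log2 fold change 0.58 ± 0.09, adjusted p = 0.00109). Both sets lie tight and well apart. ADM had 31.4, 21.8 and 22.1 TPM with the ASO, against 56.6, 41.9 and 53.1 TPM in controls, and fell by 1.00 ± 0.20 on the log2 scale (adjusted p = 0.00602). P4HA2 had 21.1, 18.1 and 19.9 TPM with the ASO, against 29.7, 30.8 and 25.4 TPM in controls (log2 fold change -0.52 ± 0.10, adjusted p = 0.00505). HK1 had 29.8, 25.1 and 27.3 TPM with the ASO, against 35.9, 33.8 and 34.1 TPM in controls (log2 fold change -0.33 ± 0.10, adjusted p = 0.0410). The HK1 call was lost without any 1 of 5 libraries, namely ASO3 replicate 4 or 5 or any control, with log2 fold changes of -0.39 to -0.27 over all omissions and an adjusted p of up to 0.162. Without all A549 replicate 3 libraries, 15 members were called in place of 5. The share of all genes called in that run is not given here, so the rise is no result about the members. With the compared groups only, 3 were called, without HK1 and P4HA2.

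Candidate 42 ASO5, aimed at the same RNA, raised 4 members in A549 and lowered none that passed the test, against 3.82% of all genes called (1.42% higher and 2.4% lower). ALDOC had 16.5, 17.8 and 16.1 TPM with the ASO, against 5.80, 5.70 and 5.96 TPM in controls (log2 fold change 1.45 ± 0.15, adjusted p = 0.000205). PFKFB4 had 4.28, 5.86 and 4.30 TPM with the ASO, against 2.66, 3.01 and 2.13 TPM in controls (log2 fold change 0.78 ± 0.16, adjusted p = 0.0155). Every ASO5 library lies above every control for both. P4HA2 had 39.7, 42.3 and 39.6 TPM with the ASO, against 29.7, 30.8 and 25.4 TPM in controls (log2 fold change 0.50 ± 0.10, adjusted p = 0.0158). The same gene was called lower with ASO3 from the same control libraries, and the ASO3 and ASO5 libraries do not overlap. ENO2 had 57.1, 58.5 and 58.9 TPM with the ASO, against 45.6, 41.5 and 38.6 TPM in controls (log2 fold change 0.47 ± 0.10, adjusted p = 0.0155). ADM, called lower with ASO3, averaged 51.8 ± 9.31 TPM with ASO5 and 50.5 ± 7.66 TPM in controls. Only the ALDOC call held without each single library. Without ASO5 replicate 4, 1 member was called, and ENO2, P4HA2 and PFKFB4 were lost. Without control replicate 5 they were lost too, and 2 members were called, 1 of them not among the 4. Without ASO5 replicate 5, 2 members were called, and ENO2 and P4HA2 were lost. ENO2 was also lost without control replicate 4. The lost calls reached adjusted p-values of up to 0.0864. Without all A549 replicate 3 libraries, 10 members were called, and with the compared groups only 1, ALDOC.

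Candidate 240 ASO1 called no member in A549 under limma, and none of the 14740 genes (0%). Only 1 member had an unadjusted p under 0.05, BNIP3, which had 61.6, 49.8 and 56.1 TPM with the ASO, against 47.3, 48.2 and 48.7 TPM in controls (log2 fold change 0.21, adjusted p = 1). The authors' deposited table also held 0 members at a q-value under 0.05. Log2 fold changes of the members ran from -0.22 to 0.22.

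Candidate 240 ASO3 called 8 members in A549 without the replicate block, 5 higher and 3 lower, against 13.8% of all genes (6% higher and 7.82% lower). ALDOC showed the largest change of any member in any comparison with control. It had 31.5, 21.9 and 21.0 TPM with the ASO, against 5.80, 5.70 and 5.96 TPM in controls (log2 fold change 1.98 ± 0.15, adjusted p = 1.91e-06). Its share of the ALDOA and ALDOC signal was 1.64% ± 0.175 with the ASO and 0.418% ± 0.0914 in controls. NDRG1 had 54.0, 67.5 and 64.0 TPM with the ASO, against 24.7, 34.05 and 39.0 TPM in controls (log2 fold change 0.93 ± 0.17, adjusted p = 0.00231). PFKFB4 had 4.27, 4.85 and 4.28 TPM with the ASO, against 2.66, 3.01 and 2.13 TPM in controls (log2 fold change 0.69 ± 0.16, adjusted p = 0.00945). ANKRD37, a small ankyrin-repeat protein, had 11.99, 8.43 and 9.05 TPM with the ASO, against 7.26, 5.97 and 5.83 TPM in controls (log2 fold change 0.58 ± 0.17, adjusted p = 0.0369). ENO2 had 60.8, 53.8 and 48.8 TPM with the ASO, against 45.6, 41.5 and 38.6 TPM in controls (log2 fold change 0.37 ± 0.10, adjusted p = 0.0185).

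The 3 members that fell with candidate 240 ASO3 in A549 were CA12, PDK1 and SLC2A1. CA12 had 129, 241 and 259 TPM with the ASO, against 302, 442 and 373 TPM in controls (log2 fold change -0.88 ± 0.22, adjusted p = 0.0176), and replicate 3 was lowest in both groups. PDK1 had 0.822, 0.864 and 1.06 TPM with the ASO, against 1.498, 1.82 and 1.61 TPM in controls (log2 fold change -0.60 ± 0.19, adjusted p = 0.0489). SLC2A1 had 93.4, 103 and 111 TPM with the ASO, against 165, 143 and 142 TPM in controls (log2 fold change -0.55 ± 0.13, adjusted p = 0.0126). With the replicate number as a block, 13 members were called, 7 higher and 6 lower, where 25.1% of all genes were called. The 8 calls stood there, and EGLN1 and LDHA were added as higher and ADM, ENO1 and HIF1A as lower, with adjusted p-values of 0.00480, 0.0467, 0.00450, 0.00905 and 0.02. With a library left out, 4 members were called without control replicate 4 and 4 without control replicate 5, where CA12 (adjusted p up to 0.0826), ENO2 (up to 0.0764) and ANKRD37 (up to 0.119) lost their calls. ENO2 and ANKRD37 also lost theirs without ASO3 replicate 3, ANKRD37 without ASO3 replicate 5, and PDK1 without any 1 of the 6 libraries (log2 fold change -0.67 to -0.54, adjusted p up to 0.151). With the compared groups only, 2 members were called, ALDOC and NDRG1.

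**Figure D4:**
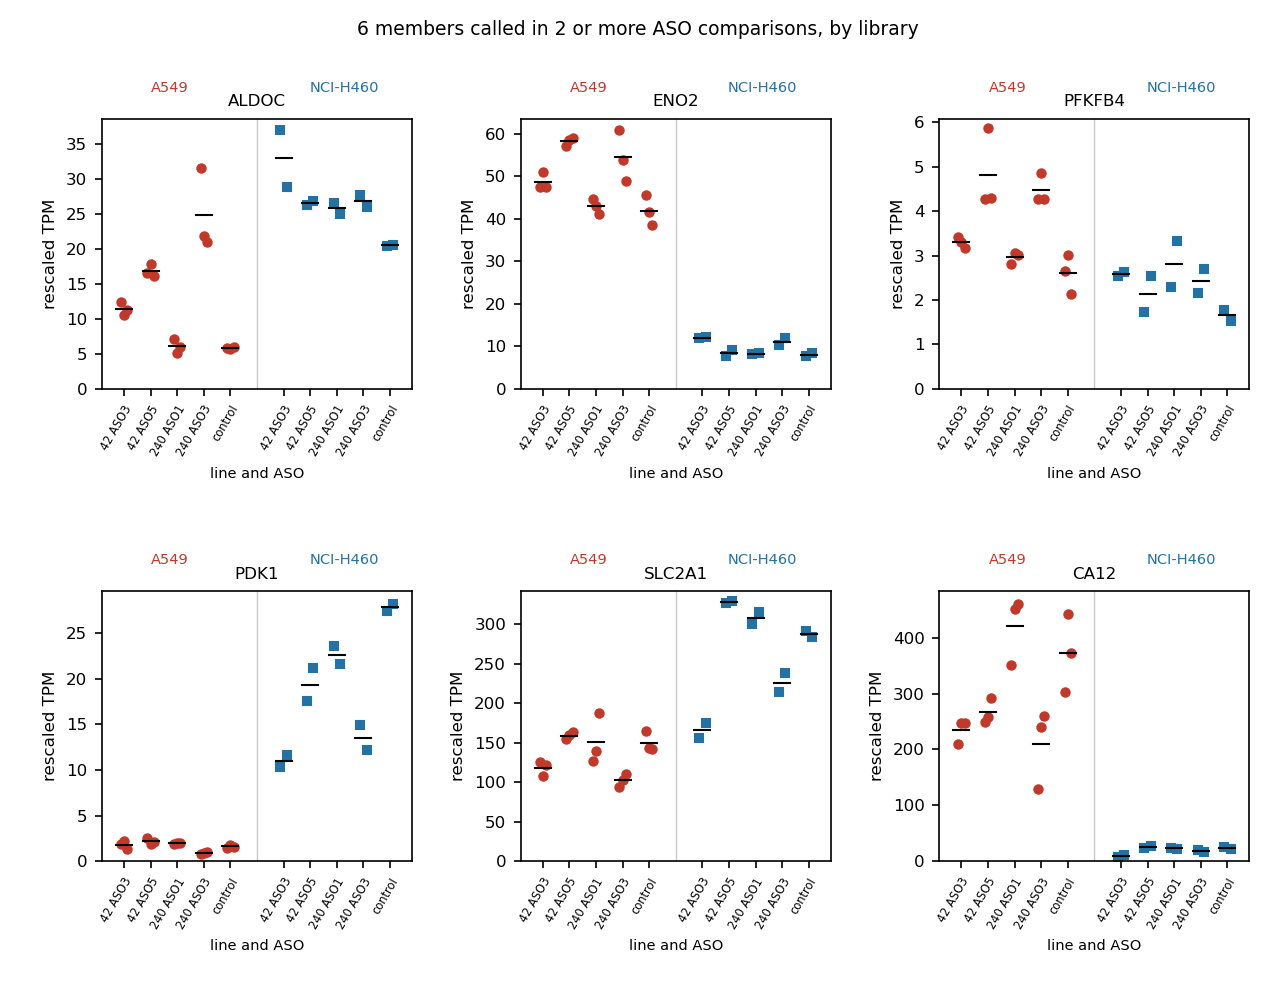
Rescaled TPM of 6 members called in 2 or more ASO comparisons, by library. HK1, ANKRD37 and P4HA2, each also called in 2 (P4HA2 once in each direction), are not shown. Circles are the 3 libraries of an A549 group, squares the 2 of an NCI-H460 group, and bars are means. The ALDOC mean is above control in all 4 ASO groups of both lines, in A549 with candidate 240 ASO1 by a log2 fold change of 0.04 with overlapping libraries, and PDK1 in NCI-H460 is below control in all 4.

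In NCI-H460, candidate 42 ASO3 changed more members than all other ASO comparisons together, 19 of 33, with 5 higher and 14 lower. The background was also the highest, with 46% of all genes called, 13.2% higher and 32.8% lower. The median log2 fold change was -0.25 over the members and -0.20 over all genes. The 5 that rose were TPI1, ALDOA, ENO2, ALDOC and ANKRD37. The 14 that fell were CA12, PDK1, KDM3A, HIF1A, HK2, SLC2A1, EGLN1, PFKFB3, P4HA1, MXI1, BNIP3L, HK1, LDHA and PFKP. PDK1 had 10.3 and 11.6 TPM with the ASO, against 27.4 and 28.2 TPM in controls (log2 fold change -1.31 ± 0.14, adjusted p = 0.000274). CA12 had 7.20 and 11.7 TPM with the ASO, against 25.7 and 21.6 TPM in controls (log2 fold change -1.31 ± 0.20, adjusted p = 0.00140). KDM3A had 2.63 and 3.61 TPM with the ASO, against 6.53 and 6.24 TPM in controls (log2 fold change -0.94 ± 0.19, adjusted p = 0.00432). In each of these the ASO libraries lie below both controls.

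HIF1A had 23.8 and 36.7 TPM with candidate 42 ASO3 in NCI-H460, against 56.3 and 54.5 TPM in controls (log2 fold change -0.89 ± 0.19, adjusted p = 0.00587). EGLN1 had 12.1 and 14.4 TPM with the ASO, against 23.3 and 22.9 TPM in controls (log2 fold change -0.78 ± 0.12, adjusted p = 0.00116). The mRNAs of the HIF subunit and of the enzyme that marks it for destruction were thus both lower. HK2 had 6.37 and 10.3 TPM with the ASO, against 15.3 and 15.4 TPM in controls (log2 fold change -0.88 ± 0.18, adjusted p = 0.00498). SLC2A1 had 156 and 175 TPM with the ASO, against 291 and 283 TPM in controls (log2 fold change -0.80 ± 0.10, adjusted p = 0.000473). PFKFB3 had 9.25 and 11.1 TPM with the ASO, against 17.7 and 17.5 TPM in controls (log2 fold change -0.76 ± 0.11, adjusted p = 0.00108). The hexokinase and phosphofructokinase steps both held called members. With 46% of all genes called in this comparison, that is no result about these steps. P4HA1 had 26.5 and 33.6 TPM with the ASO, against 50.8 and 49.7 TPM in controls (log2 fold change -0.74 ± 0.15, adjusted p = 0.00504).

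ANKRD37 had 9.94 and 9.33 TPM with candidate 42 ASO3 in NCI-H460, against 5.24 and 5.11 TPM in controls (log2 fold change 0.84 ± 0.18, adjusted p = 0.00556). ALDOC had 37.0 and 28.8 TPM with the ASO, against 20.4 and 20.6 TPM in controls (log2 fold change 0.66 ± 0.12, adjusted p = 0.00300). ENO2, ALDOA and TPI1 also rose, by log2 fold changes of 0.56, 0.48 and 0.44. The smaller falls were MXI1 (-0.62), BNIP3L (-0.51), HK1 (-0.49), LDHA (-0.32) and PFKP (-0.26). LDHA had 647 and 721 TPM with the ASO, against 813 and 890 TPM in controls (adjusted p = 0.0280).

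The balance of rises and falls with candidate 42 ASO3 in NCI-H460 moved with the scaling. Median-of-ratios scaling shifts the median of all genes by 0.21 and gave 11 members higher and 10 lower. Of the 19 calls, 15 stood there, including all 5 rises and the falls of PDK1, CA12, KDM3A, HIF1A, HK2, SLC2A1, EGLN1, PFKFB3, P4HA1 and HK1, while PFKP, LDHA, BNIP3L and MXI1 were lost. SLC2A3, PFKL, PFKFB4, GAPDH, PGAM1 and PKM gained a call under that scaling, all as higher. Leaving out a library gave 12 calls without control replicate 1, 13 without control replicate 2, 15 without ASO3 replicate 1 and 23 without ASO3 replicate 2. ALDOA, TPI1, BNIP3L, LDHA and MXI1 lost their calls without ASO3 replicate 1 or either control, PFKP without either control and ENO2 without control replicate 1, with adjusted p-values of at most 0.246 and no change of sign. With the compared groups only, ALDOA, TPI1, BNIP3L, LDHA, MXI1 and PFKP lost their calls. The log2 fold change also moved with the genomic span of a gene, with Spearman's rho of -0.573 across 33 members and -0.493 across 13637 genes, which are not independent replicates and share these libraries. In A549 with the same ASO these values were -0.281 and -0.155. The relation was not particular to candidate 42 ASO3. With candidate 240 ASO1, which called no gene, the values were 0.377 and 0.254 in A549 and -0.389 and -0.273 in NCI-H460. With candidate 240 ASO3 in NCI-H460 they were -0.119 and -0.382. The part of gene span in the result was not tested.

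In NCI-H460 no member was called with candidate 42 ASO5, where 0.508% of all genes were called (0.182% higher and 0.327% lower). In limma, 6 members were under an unadjusted p of 0.05. No member (0) passed a q-value of 0.05 in the authors' deposited table. EGLN3 had 11.2 and 9.25 TPM with the ASO, against 7.72 and 5.82 TPM in controls (log2 fold change 0.57 ± 0.17, adjusted p = 0.179). PDK1 had 17.6 and 21.2 TPM with the ASO, against 27.4 and 28.2 TPM in controls (log2 fold change -0.52 ± 0.14, adjusted p = 0.136). Neither set of groups overlaps, and neither difference passed the test. Candidate 240 ASO1 called no member and none of all genes (0%). There 2 members had an unadjusted p under 0.05, PFKFB4 and ALDOC, and again the authors' deposited table held 0 at a q-value under 0.05.

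Candidate 240 ASO3 lowered 1 member in NCI-H460, against 5.66% of all genes called (2.65% higher and 3.01% lower). PDK1 had 14.9 and 12.2 TPM with the ASO, against 27.4 and 28.2 TPM in controls (log2 fold change -1.02 ± 0.14, adjusted p = 0.00568). The call was lost without ASO3 replicate 2 or control replicate 2 (log2 fold change -1.16 to -0.88 over all omissions, adjusted p up to 0.0634), and 2 members were called without control replicate 1. PDK1 held 50.5% ± 1.49 of the summed PDK1 to PDK4 signal with the ASO and 65.3% ± 0.722 in controls. NDRG1 had 12.6 and 10.9 TPM with the ASO, against 7.75 and 4.16 TPM in controls, a log2 fold change of 0.98 ± 0.26 that did not pass (adjusted p = 0.0622). SLC2A1 had 214 and 238 TPM with the ASO, against 291 and 283 TPM in controls (log2 fold change -0.35 ± 0.10, adjusted p = 0.0659). PDK1, SLC2A1 and NDRG1 were all called with this ASO in A549, in the same directions, from different control libraries.

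Subtracting the log2 fold change of NCI-H460 from that of A549 tested whether the lines differ. With candidate 42 ASO3 it called 9 members, 8 higher and 1 lower in A549, against 19.7% of all genes (15.5% and 4.22%), with a median difference of 0.27 over the members and 0.15 over all genes. PDK1 had a log2 fold change of 0.09 in A549 and -1.31 in NCI-H460, a difference of 1.39 ± 0.23 (adjusted p = 0.00137). HK2 is among the 9, with a difference of 1.41, but entered the test only through NCI-H460 and is given as a description. It had 0.531, 0.632 and 0.406 TPM with the ASO in A549, against 0.175, 0.229 and 0.226 TPM in controls, all below the 1 TPM of the filter. EGLN1 differed by 1.21 ± 0.24 (adjusted p = 0.00477), with 59.0, 68.1 and 74.6 TPM with the ASO in A549, against 38.7, 54.3 and 58.1 TPM in controls. In A549 alone this difference (log2 fold change 0.43) did not pass in limma, with an adjusted p of 0.146. The authors' deposited table did call EGLN1 there, at a q-value under 0.05.

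MXI1, an antagonist of MYC, differed by 1.3 ± 0.43 (adjusted p = 0.0409), KDM3A by 1.12 ± 0.29 (adjusted p = 0.0168), P4HA1 by 0.83 ± 0.20 (adjusted p = 0.0130) and LDHA by 0.61 ± 0.17 (adjusted p = 0.0213). BNIP3, higher with the ASO in A549, had 71.9 and 87.0 TPM with it in NCI-H460, against 93.7 and 97.02 TPM in controls, and differed by 0.84 ± 0.15 (adjusted p = 0.00253). ADM was the single member with a lower response in A549, at -1 against -0.03 in NCI-H460, a difference of -0.98 ± 0.28 (adjusted p = 0.0249). The number called was 3 without NCI-H460 candidate 42 ASO3 replicate 1 and 4 without NCI-H460 control replicate 2. PDK1 and BNIP3 stood without every single library. With the compared groups only, ADM, MXI1 and P4HA1 lost their calls. Median-of-ratios scaling shifts the median of all genes in this comparison by -0.24, left 7 of the 9 calls (not MXI1 and LDHA) and gave a split of 6 higher and 4 lower, against 8 and 1.

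**Figure D5:**
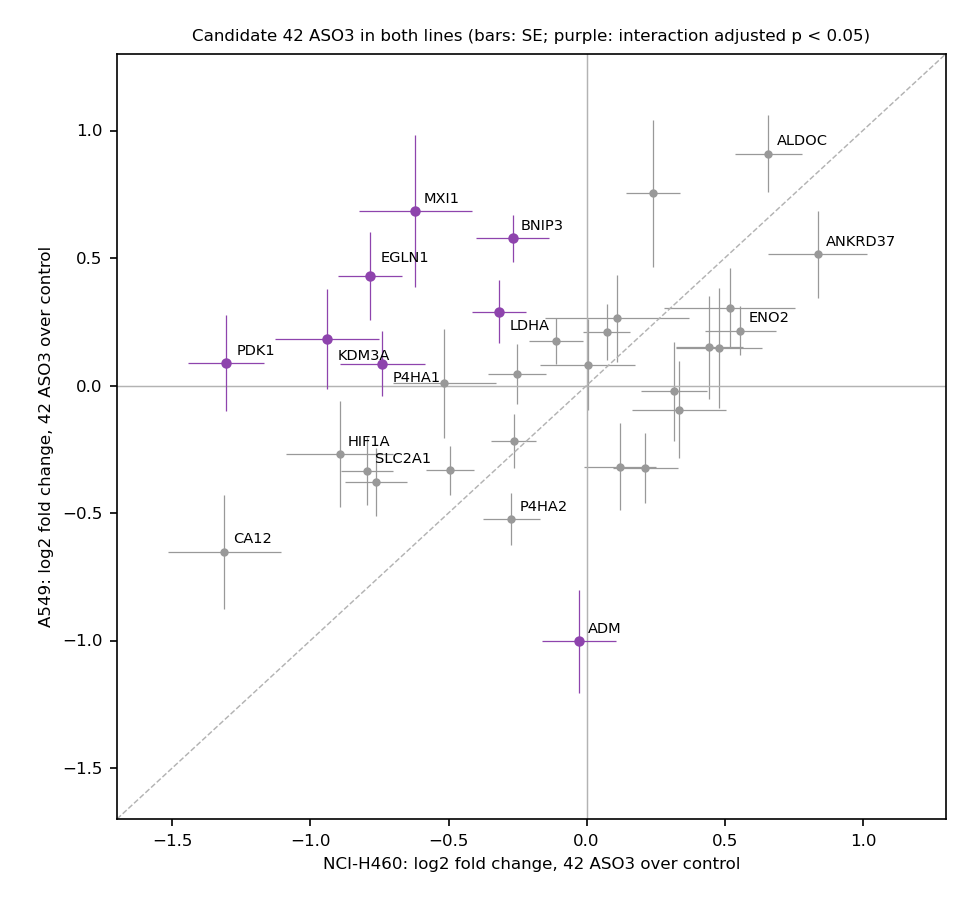
Response of the members to candidate 42 ASO3, as log2 fold change over control in A549 (vertical axis) and in NCI-H460 (horizontal axis), with SE bars and the line of equal response. Purple marks the members whose response differed between the lines at an adjusted p under 0.05. PDK1, EGLN1, KDM3A, P4HA1 and MXI1 lie left of 0 in NCI-H460 and at or above 0 in A549, and ADM lies low in A549 only; HK2 and CA9, under the filter in 1 line, are not plotted.

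With candidate 240 ASO3 the lines differed for 1 member, against 1.21% of all genes (0.393% higher and 0.819% lower). ALDOC rose in A549 by a log2 fold change of 1.98, and had 27.7 and 26.0 TPM with the ASO in NCI-H460, against 20.4 and 20.6 TPM in controls (log2 fold change 0.38, adjusted p = 0.103). The difference was 1.60 ± 0.21 (adjusted p = 0.000548) and stood without every single library, but the call was lost with the compared groups only. For candidate 42 ASO5 and candidate 240 ASO1, 0 members were called, against 0.0339% (0.0203% higher and 0.0135% lower) and 0% of all genes, with 7 and 2 members at an unadjusted p under 0.05. ALDOC came nearest with candidate 42 ASO5, at a difference of 1.09 ± 0.21 (adjusted p = 0.119).

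Without the replicate block, HIF1A and LDHA were called with candidate 42 ASO3 in NCI-H460 and in no other comparison of an ASO with control, and CA9 and EGLN3 in none. With the block, candidate 240 ASO3 in A549 also called HIF1A lower (adjusted p = 0.02) and LDHA higher (adjusted p = 0.0467). HIF1A averaged 137 ± 20.6, 135 ± 16.9, 183 ± 19.9 and 133 ± 34.7 TPM with candidate 42 ASO3, 42 ASO5, 240 ASO1 and 240 ASO3 in A549, against 167 ± 37.6 TPM in controls. LDHA averaged 1163 ± 35.3, 1103 ± 107, 1113 ± 81.8 and 1140 ± 195 TPM in the same A549 groups, against 951 ± 24.2 TPM in controls. All 4 LDHA means lie above control, but none was called without the block, with adjusted p-values of 0.172, 0.450, 1 and 0.226. CA9 averaged 2.84 ± 0.724, 1.55 ± 0.443, 1.98 ± 0.763 and 1.78 ± 0.791 TPM there, against 2.17 ± 1.87 TPM in controls, and in NCI-H460 no CA9 library exceeded 1.102 TPM. EGLN3 stood between 5.08 and 11.2 TPM in all 25 libraries.

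The other genes of the pathways were taken in 4 lists, and a count near the share of all genes is no result about a list. Of 25 tested genes of other glycolytic isoforms and side branches, 2, 1, 0 and 8 were called with candidate 42 ASO3, 42 ASO5, 240 ASO1 and 240 ASO3 in A549, and 9, 0, 0 and 2 in NCI-H460. Over all genes the shares called, in the same order of ASOs, were 10.1%, 3.82%, 0% and 13.8% in A549 and 46%, 0.508%, 0% and 5.66% in NCI-H460, and they apply to each of the 4 lists. GBE1, the glycogen branching enzyme, fell with candidate 42 ASO3 in both lines, by 0.89 on the log2 scale in A549 (adjusted p = 7.21e-05) and by 1.58 in NCI-H460 (adjusted p = 0.000126). It was also called lower with candidate 240 ASO3 in A549. HKDC1, a further hexokinase-domain gene, stood at 38.2 TPM in A549 controls against 1.06 TPM in NCI-H460 controls, a log2 difference of 4.61 opposite in sign to that of HK2. Of the genes of lactate and pyruvate handling, 1, 0, 0 and 2 of 14 tested were called in A549 and 8, 0, 0 and 0 of 15 in NCI-H460. SLC16A3, the lactate exporter MCT4, rose with candidate 42 ASO3 in A549, at 353 TPM with the ASO and 161 TPM in controls (log2 fold change 1.12, adjusted p = 0.00156). It was also called higher with the same ASO in NCI-H460. PDK3 fell with candidate 240 ASO3 in A549, at 2.54 ± 0.431 TPM with the ASO and 8.24 ± 0.583 TPM in controls (log2 fold change -1.53), and PDK4 fell with candidate 42 ASO3 in NCI-H460, at 2.40 ± 0.373 TPM against 7.78 ± 0.0649 TPM (log2 fold change -1.52).

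Of the regulators of HIF, 0, 0, 0 and 1 of 14 tested were called in A549 and 8, 0, 0 and 0 of 13 in NCI-H460, in the same order of ASOs. The coactivators CREBBP and EP300 fell with candidate 42 ASO3 in NCI-H460, by 1.65 and 1.08 on the log2 scale, and ARNT by 0.89. CUL2, EPAS1 and VHL were also called lower there, and EGLN2 and RBX1 higher. Of 37 tested further HIF targets, 8, 3, 0 and 7 were called in A549 and 18, 1, 0 and 2 in NCI-H460. GPRC5A rose with candidate 42 ASO3 in A549 (log2 fold change 1.05, adjusted p = 0.000378) and was also called higher with 42 ASO5 there. With candidate 42 ASO3 in NCI-H460 it was called lower. ANGPTL4, a regulator of lipoprotein lipase, rose with candidate 240 ASO3 in A549, at 23.3 TPM with the ASO and 9.99 TPM in controls (log2 fold change 1.23, adjusted p = 0.0458). PLIN2, a lipid droplet protein, rose in NCI-H460 with candidate 42 ASO5 (log2 fold change 0.80) and with candidate 240 ASO3 (0.63). It was also called higher with candidate 42 ASO3 in NCI-H460 and with candidate 240 ASO3 in A549.

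In the authors' deposited tables, 6 members were higher and 4 lower at a q-value under 0.05 with candidate 42 ASO3 in A549, 7 higher and 0 lower with candidate 42 ASO5, and 4 higher and 2 lower with candidate 240 ASO3. Of all genes in these authors' deposited tables, 11.3%, 5.56% and 11.6% passed. In NCI-H460 the authors' deposited tables held 12 higher and 17 lower with candidate 42 ASO3 and 2 higher and 3 lower with candidate 240 ASO3, where 49.3% and 6.91% of all their genes passed. The authors' deposited tables of the other 3 comparisons held 0 members and 0% of genes. No member was called in opposite directions by limma and the authors' deposited tables.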

How the data were processed

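RNA from 25 libraries was measured in 10 groups, taken from the sample titles. Per the submitters' processing notes, kallisto, sleuth 0.30 and build hg38 were used; the annotation and strand setting are not stated there. The authors deposited 1 signal value for each gene in each library, called TPM, whose column sums differ, so it had been rescaled and depth and counting error are unknown. The authors also deposited 8 tables with a log2 fold change, a q-value and mean signals per comparison, used only where named.

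Tests used log2(TPM + 0.5), a scale on which low genes show too small a fold change, and kept genes averaging 1 TPM or more (14740 in A549, 13774 in NCI-H460, 14769 over all libraries). limma 3.58.1 in R 4.3.3 (lmFit, contrasts.fit, eBayes with a trend) was fitted to the 5 groups of a line (10 and 5 residual degrees of freedom) or to all 25 libraries (15). The two-sided p-values of a comparison were adjusted over all its genes (Benjamini-Hochberg), with a call at an adjusted p under 0.05. Errors of means are SD and those of fold changes SE. The fit was tested on simulated data.

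Same-numbered libraries deviated together in A549 for candidate 240 ASO1 (r = 0.170 to 0.410 over 3 pairs) and ASO3 (0.283 to 0.564). The fit behind the calls still held no replicate block, so its p-values ignore this pairing. The alternative with the block is the paired fit, with 13 members called for candidate 240 ASO3 in A549 and 0 for ASO1. Promoter sequences are from RefSeq, GRCh38.p14, and 31 of 34 members matched by symbol. Gene spans are from the coordinates in the authors' tables.

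The members and the gene lists were chosen with earlier results of these data known. Per-library values are given for members called between the controls with an absolute log2 difference of at least 1, for called members of an ASO comparison (at most the 10 largest), and always for HIF1A, SLC2A1, HK2, LDHA, PDK1, CA9 and EGLN3. At most 4 genes are named per other list and comparison. The exception is the HIF regulators with candidate 42 ASO3 in NCI-H460, where all 8 called genes are named. Alternatives were other scalings, a pseudocount of 1, no filter, the compared groups only, the replicate block, each library left out and, chosen after seeing the data, no A549 replicate 3 libraries.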

Additional observations from a re-analysis of the deposited data

Results flagged for a closer look

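In all, 10 responses differed between A549 and NCI-H460 in the test of the difference itself, 9 with candidate 42 ASO3 and 1 with candidate 240 ASO3. Of all genes tested, 19.7% were called with candidate 42 ASO3 and 1.21% with candidate 240 ASO3. With candidate 42 ASO3 the A549 value less the NCI-H460 value was 1.41 for HK2, 1.39 for PDK1, 1.3 for MXI1, 1.21 for EGLN1, 1.12 for KDM3A, 0.84 for BNIP3, 0.83 for P4HA1, 0.61 for LDHA and -0.98 for ADM, all on the log2 scale. With candidate 240 ASO3 it was 1.60 for ALDOC. The lines hold different replicate numbers, so line and replicate batch cannot be told apart. HK2 lay under 1 TPM in every A549 library and entered the test only through NCI-H460, so its value is a description. With the compared groups only, the calls of ADM, MXI1 and P4HA1 with candidate 42 ASO3 and of ALDOC with candidate 240 ASO3 were lost. With candidate 42 ASO3, MXI1 and LDHA lost theirs under median-of-ratios scaling. EGLN1, KDM3A, LDHA, MXI1, P4HA1 and ADM each lost the call when some single libraries were left out.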

How the results depend on the processing

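No called member changed sign under any alternative run, but median-of-ratios scaling turned the balance of higher and lower members from 15 and 12 to 12 and 15 between the controls, and from 5 and 14 to 11 and 10 for candidate 42 ASO3 in NCI-H460. Median-of-ratios scaling and a pseudocount of 1 kept every count of called members within 1.5 times. For candidate 42 ASO3 in A549, 5 members were called, against 10 with each library rescaled to a common total, 3 with the compared groups only, 16 with the replicate block (21.1% of all genes, against 10.1%) and 15 without A549 replicate 3. For candidate 42 ASO5 in A549 the 4 calls became 1 with the compared groups only, 8 with the block (10.4% of all genes, against 3.82%) and 10 without replicate 3. For candidate 240 ASO3 in A549 the 8 calls became 5 without the filter, 2 with the compared groups only and 13 with the block (25.1% of all genes, against 13.8%). In NCI-H460 the block gave 2 members for candidate 240 ASO3 in place of 1. The difference between lines for candidate 42 ASO3 gave 17 members with the block in place of 9, where the share of all genes called was 38.2% in place of 19.7%. That for candidate 42 ASO5 gave 1 in place of 0 without the filter, with the common total, with the block and without replicate 3, and that for candidate 240 ASO3 gave 0 with the compared groups only, 2 with the block and 2 without replicate 3, in place of 1. The cause was not tested. Counts of members given without a share of all genes show only how the calls moved and are no result about the members. For candidate 240 in A549 the run with the block is the paired one. Elsewhere the replicate numbers were not taken to pair libraries. The lowest correlation was 0.0897 and 0.0213 for candidate 42 ASO3 and ASO5 in A549, and NCI-H460 has 2 pairs. Leaving out 1 library at a time gave 23 to 28 members between the controls. In A549 it gave 4 to 5 with candidate 42 ASO3, 1 to 4 with 42 ASO5, 0 with 240 ASO1 and 4 to 7 with 240 ASO3. In NCI-H460 it gave 12 to 23 with 42 ASO3, 0 with 42 ASO5 and 240 ASO1, and 0 to 2 with 240 ASO3. For the difference between lines it gave 3 to 10 with 42 ASO3, 0 with 42 ASO5 and 240 ASO1, and 1 with 240 ASO3. A lone library left in a group was assumed to vary like the others. TPM keeps no depth, so values near or under 1 TPM (HK2, CA9 and PDK1 in A549, CA9 in NCI-H460) carry an unknown counting error.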
